A study of Mus musculus with 4 samples.

Results

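The keratins, claudins and junction genes of epithelia were followed across 4 kinds of mouse cell. The set was chosen by gene symbol alone: numbered keratins (Krt) and claudins (Cldn), the desmosomal genes Dsc1 to Dsc3, Dsg1 to Dsg4, Dsp, Jup and Pkp1 to Pkp4, the tight junction genes Tjp1 to Tjp3 and Ocln, Epcam, the connexins Gjb1 to Gjb6, and the splicing regulators Esrp1 and Esrp2. Of 18193 genes on the array, 84 met this rule, on 124 probe sets. They were 44 keratins, 20 claudins, 10 desmosomal genes, 4 beta connexins, 3 other tight junction genes, 2 splicing regulators and Epcam.

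Each kind of cell was measured on 1 Affymetrix array. The ES array held undifferentiated embryonic stem (ES) cells. The second array is labelled as HB9-GFP+ cells, meaning cells sorted for a green fluorescent protein reporter of HB9, a motor neuron transcription factor encoded by Mnx1. The Sox1 array held neural stem cells sorted for Sox1, and the granule array held granule cells of the mouse cerebellum at postnatal day 6. The HB9 reporter is carried by an ES line, which per the labels was grown on mitomycin-treated embryonic fibroblasts with leukemia inhibitory factor. Its differentiation used Sonic hedgehog, retinoic acid at 0.1 uM and purmorphamine at 0.2 uM from day 5 to day 9, while the sort is dated to day 8. Strain, sex, the reporter's construction, the number of animals behind the granule cells and the source of the Sox1 cells are not given in the labels used here. With 1 array per kind of cell no difference below has a replicate error, and every difference is one between these arrays.

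Epithelial cells are held together by several kinds of junction. Tight junctions seal the space between cells and are built from claudins and occludin on a scaffold of Tjp (ZO) proteins. Desmosomes join cells mechanically: the cadherins Dsg and Dsc span the membrane, and plakoglobin (Jup), plakophilins (Pkp) and desmoplakin (Dsp) tie them to keratin filaments. Keratins are obligate pairs of a type I and a type II chain, and Krt8 with Krt18 is the pair of simple epithelia and the early embryo. Mouse ES cells grow as compact colonies with epithelial features and E-cadherin contacts. When the neural plate forms, neural progenitors exchange E-cadherin for N-cadherin while keeping apical adherens junctions with Tjp1.

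A signal was called detected at 157.5 or more, which is 1 log2 unit above a low level of 78.8. Signals under the low level were set to it before differences were taken. A gene was called higher or lower at 2 log2 units (4-fold) with detection on the brighter array. A fold whose dimmer signal was at or under the low level is a lower bound, written "at least". No fold is given for a dimmer signal above the low level but still undetected.

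The labels were checked first with genes of each cell type. Detected ES markers numbered 8 of 8 on the ES array and 8 of 8 on the array labelled HB9-GFP+, and Pou5f1 stood at 9255.5 and 11188. In Sox1 cells 5 of the 8 were detected, and in granule cells 0. Mnx1 was undetected everywhere, with a signal of 15.9 under the HB9-GFP+ label, and motor neuron markers gave 1, 0, 1 and 0 of 8 on the ES, HB9-GFP+ labelled, Sox1 and granule arrays. Olig2, a factor of motor neuron progenitors and of oligodendrocytes, and Olig1 were detected on that array, at 320.6 and 619.7 against 0.9 and 61.9 on the ES array. The Mnx1 and ES marker values go against its label as HB9-GFP+ cells, and it is called the HB9-GFP+ labelled array throughout. Fibroblast markers were detected in 12 of 12 cases on it, against 3 on the ES array, 3 with Sox1 cells and 8 with granule cells. Sox1 itself reached 2262.1 in Sox1 cells, compared with 193.5 for ES cells, and granule cell markers were detected in 7 of 8 cases on the granule array, against 5, 3 and 2 on the Sox1, ES and HB9-GFP+ labelled arrays. The 3' to 5' signal ratio of the actin control was 4.55, 2.77, 5.08 and 2.29 in the order ES, HB9-GFP+ labelled, Sox1 and granule. That of the Gapdh control was 1.99, 1.37, 3.68 and 2.70.

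Most of the epithelial genes were dark everywhere. Of the 84 genes, 28 were detected on at least 1 array and 56 on none, while 63.6% of all genes were detected on at least 1 array. The number detected was 24 on the ES array (28.6%), 21 on the HB9-GFP+ labelled array (25.0%), 13 in Sox1 cells (15.5%) and 9 in granule cells (10.7%). The same shares over all genes were 51.8%, 51.3%, 51.5% and 52.3%, which differ by little. The set thus had more genes detected on the ES and HB9-GFP+ labelled arrays than on the Sox1 and granule arrays. The order of the first pair turned with a detection level 1 log2 unit higher (15 and 16) and with centring on reference genes (20 and 21). Only 5 of the 84 genes were detected on all 4 arrays, against 40.6% of all genes. These were Pkp4, Cldn12, Tjp1, Krt10 and Krt42. RNA of whole populations was measured, so fewer cells of a type and less RNA per cell cannot be told apart in any of these values.

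**Figure D1:**
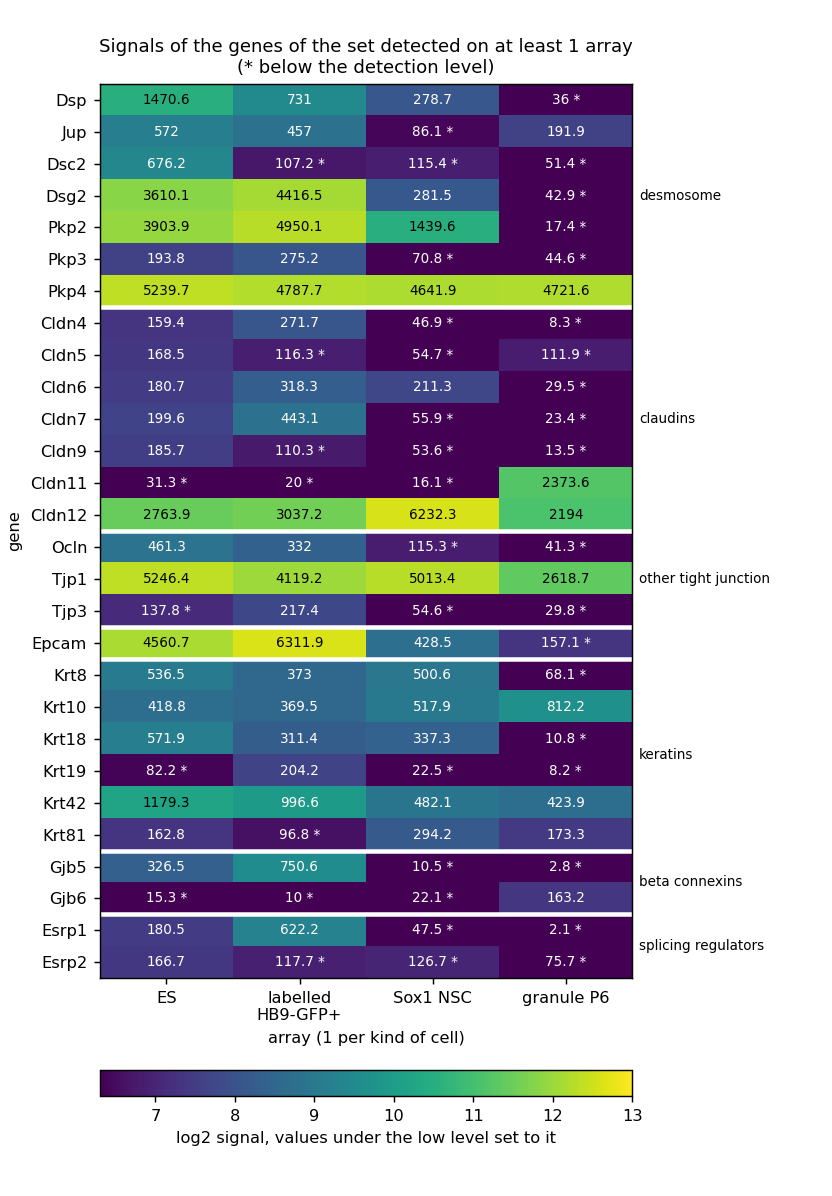
Signals of the 28 detected genes (rows, grouped by family) on the 4 arrays (columns), as deposited; colour gives the log2 signal with values under 78.8 set to it, and a star marks a signal under the detection level of 157.5. Most desmosomal, claudin and Epcam rows are brightest in the ES and HB9-GFP+ labelled columns, Cldn11 and Gjb6 are detected in the granule column alone, and Pkp4 is even across all 4.

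The widest ranges over the 4 arrays were those of the desmosomal genes Pkp2 (5.97 log2 units) and Dsg2 (5.81), followed by Epcam (5.33). Other desmosomal genes differed less, down to 0.17 for Pkp4. Dsg2, the desmosomal cadherin found in nearly all desmosome-bearing tissues, had a signal of 3610.1 on the ES array, 4416.5 on the HB9-GFP+ labelled array, 281.5 with Sox1 cells and 42.9 with granule cells. It was therefore bright on the first pair, 12.8-fold lower on the Sox1 array than on the ES array, and at least 45.8-fold lower on the granule array. Of its 6 probe sets, 5 were detected on 1 or more arrays. None of these 5 was brighter on the Sox1 or granule array than on the HB9-GFP+ labelled array. The log2 difference between the HB9-GFP+ labelled and Sox1 arrays ran from 1.13 to 3.97 over them. Sox1 minus ES differences ran from -3.68 to 0.0, and granule minus ES differences from -5.52 to 0.0. Each 0.0 is of the same probe set, detected on the HB9-GFP+ labelled array alone, at 172.8 against 38.5 on the ES array.

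Pkp2, a plakophilin that links the desmosomal cadherins to desmoplakin, stood at 3903.9 on the ES array, 4950.1 on the HB9-GFP+ labelled array and 1439.6 on the Sox1 array, but at 17.4 on the granule array. The granule array was the exception here, at least 18.3-fold below the Sox1 array and at least 49.6-fold below the ES array. On a further probe set, detected on the same 3 arrays, the signals were 1335.6, 1698.5, 282.7 and 41.9. Another was detected on the ES array alone, at 227.5, and was at 89.9, 77.6 and 42.0 on the others. The last Pkp2 probe set was undetected throughout, with a highest signal of 111.6. Dsp, the plaque protein that anchors keratin filaments, was at 1470.6, 731, 278.7 and 36 in the same order of arrays. Its signal was 5.28-fold lower on the Sox1 array than on the ES array and at least 18.7-fold lower on the granule array. The difference between the ES and HB9-GFP+ labelled arrays was -1.01 log2 units and fell short of 4-fold.

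Jup, or plakoglobin, serves both desmosomes and adherens junctions. It was at 572 on the ES array and 457 on the HB9-GFP+ labelled array, undetected at 86.1 on the Sox1 array, and detected again at 191.9 on the granule array. Dsc2, the partner cadherin of Dsg2, was detected on the ES array alone, at 676.2, against 107.2, 115.4 and 51.4 on the HB9-GFP+ labelled, Sox1 and granule arrays. It was the one gene of the set called between the ES and HB9-GFP+ labelled arrays, and its pattern of being higher on the ES array than on each other array was shared by 0.247% of all genes. That call rests on 1 probe set, because the other Dsc2 probe set was undetected throughout, with a highest signal of 42.2. Pkp3, a plakophilin of stratified and simple epithelia, was detected at 193.8 and 275.2 on the ES and HB9-GFP+ labelled arrays. It was at 70.8 and 44.6 on the other pair and was not called. Its folds are lower bounds, at least 2.46 for the ES array and at least 3.49 for the HB9-GFP+ labelled array. With log2(signal + 32) in place of the floor, its HB9-GFP+ labelled against granule difference was 2.0. Pkp4, which also binds classical cadherins, differed least: 5239.7, 4787.7, 4641.9 and 4721.6, with no difference above 0.17 log2 units in size. Dsc1, Dsc3 and Pkp1, genes of stratified epithelium, were undetected on all arrays, between 6.7 and 91.5.

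**Figure D2:**
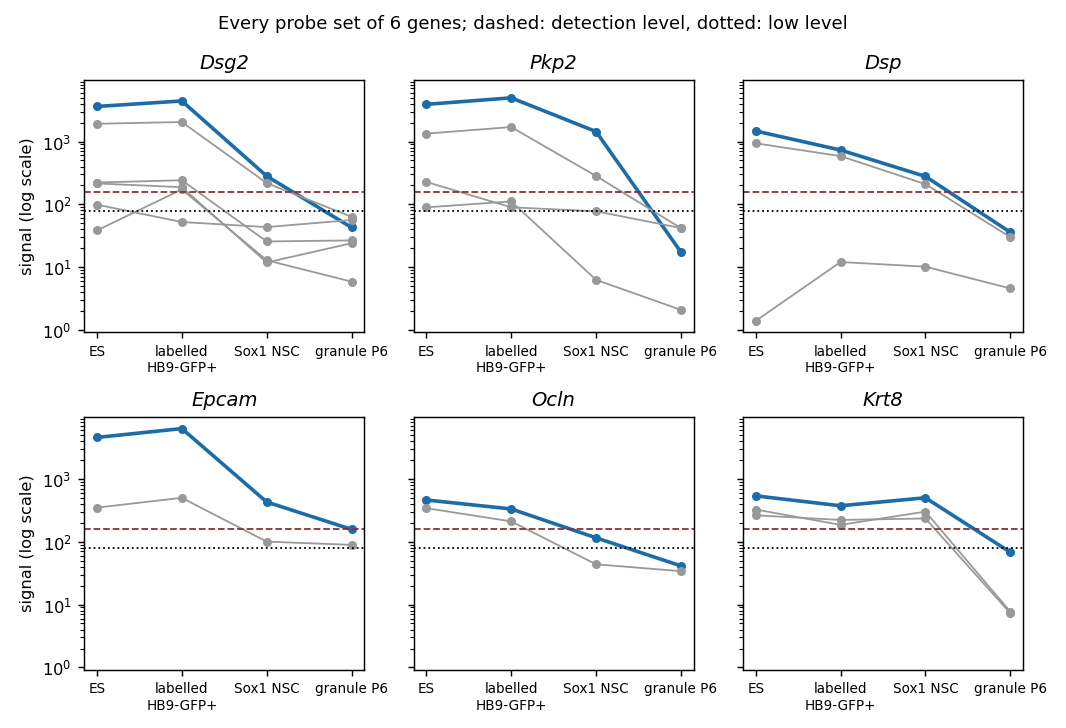
Signal of every probe set (1 line each, log axis) of Dsg2, Pkp2, Dsp, Epcam, Ocln and Krt8 on the 4 arrays; the blue line is the probe set that stands for the gene, grey lines are its others, and lines only join values of one probe set. The detected probe sets of Dsg2, Dsp, Epcam and Ocln drop between the HB9-GFP+ labelled and Sox1 arrays, and the 3 of Krt8 stay detected up to the Sox1 array and lie under the low level on the granule array.

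Among the tight junction genes, 7 of 20 claudins were detected. Cldn4, Cldn6 and Cldn7, claudins of simple epithelia and of the early embryo, were dim on the ES array and somewhat brighter on the HB9-GFP+ labelled array. Cldn7 was at 199.6 and 443.1 on these arrays and at 55.9 and 23.4 on the Sox1 and granule arrays. The HB9-GFP+ labelled array was at least 5.63-fold above each of the latter. The ES array was at least 2.53-fold above each of them, a lower bound under the threshold, and was not called. With log2(signal + 32) in place of the floor, the granule against ES difference of Cldn7 was -2.06. Cldn4 followed the same order, at 159.4, 271.7, 46.9 and 8.3, and was not called. Its folds are lower bounds, at least 3.45 for the HB9-GFP+ labelled array and at least 2.02 for the ES array. With log2(signal + 32) the difference was 2.91 for HB9-GFP+ labelled against granule and -2.25 for granule against ES. Cldn6 was also detected on the Sox1 array, at 180.7, 318.3, 211.3 and 29.5, and its one call was the HB9-GFP+ labelled array against the granule array, at least 4.04-fold. Cldn9, which lies next to Cldn6 in the RefSeq gene order, was detected on the ES array alone, at 185.7, 110.3, 53.6 and 13.5. Its other probe set was undetected throughout, with a highest signal of 19.4.

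Cldn5, the claudin of brain endothelium, was at 168.5 on the ES array and undetected at 116.3, 54.7 and 111.9 on the others. Endothelial markers were detected in 3, 3, 1 and 0 of 9 cases on the 4 arrays in the same order. On the ES array those were Pecam1, Tek and Egfl7, while Cdh5, which defines endothelium, was at 38.4 and Tie1 at 2.0.

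A different pattern was seen for the other claudins. Cldn11, which forms the tight junctions of central myelin, was at 2373.6 on the granule array and undetected at 31.3, 20 and 16.1 on the ES, HB9-GFP+ labelled and Sox1 arrays. It was at least 30.1-fold higher on the granule array than on each of them, a pattern of 2.72% of all genes. Of 8 oligodendrocyte markers measured, all 8 were detected on the granule array, against 3, 3 and 2 on the ES, HB9-GFP+ labelled and Sox1 arrays, and their summed signal was 17053.9 there against 3227, 3058.2 and 1708.2. Mobp, Mag and Mog, which are specific to myelinating cells, stood at 1438.1, 646 and 282.7 on the granule array. Choroid plexus and meningeal markers were detected in 3, 3, 3 and 2 of 9 cases in the usual order. On the granule array the 2 were Ptgds at 593.4 and Otx2 at 610.3, the latter below its 1028.6 on the ES array. The others, Ttr (141.5) and Clic6 (98.4) among them, were undetected there. The part of such cells in the Cldn11 signal was not tested. Cldn12, a claudin that lacks the usual scaffold-binding end, was detected everywhere, at 2763.9, 3037.2, 6232.3 and 2194. Its signal was highest on the Sox1 array, 2.25-fold above the ES array and 2.84-fold above the granule array, and its other probe set gave the same order at 772.7, 931.5, 1934.6 and 688.5.

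Ocln, the tight junction protein occludin, was at 461.3 on the ES array, 332 on the HB9-GFP+ labelled array, 115.3 with Sox1 cells and 41.3 with granule cells. It was thus detected on the first pair only, and the difference between the Sox1 and ES arrays, -2.0 log2 units, lay at the threshold. Tjp1, the scaffold protein ZO-1, which also serves adherens junctions of neural cells, was detected on all arrays at 5246.4, 4119.2, 5013.4 and 2618.7 and passed 4-fold nowhere. Tjp3, a scaffold protein of epithelia, was detected on the HB9-GFP+ labelled array alone, at 217.4 against 137.8, 54.6 and 29.8. The remaining 13 claudins, Cldn1, Cldn2, Cldn3, Cldn8, Cldn10, Cldn13, Cldn14, Cldn15, Cldn16, Cldn18, Cldn19, Cldn22 and Cldn23, were undetected, between 0.8 and 152.1, the highest being Cldn10 on the granule array.

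Epcam, the epithelial adhesion molecule that also associates with claudins, was at 4560.7 on the ES array, 6311.9 on the HB9-GFP+ labelled array, 428.5 with Sox1 cells and 157.1 with granule cells. The last value lies just under the detection level. Signals on the first pair were far above those on the second: the Sox1 array was 10.6-fold below the ES array and the HB9-GFP+ labelled array was 14.7-fold above the Sox1 array. A second Epcam probe set was dimmer, at 348.9, 499.6, 100.3 and 89.1, and placed the arrays in the same order.

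Of 44 keratins, 6 were detected. Krt8 was at 536.5 on the ES array, 373 on the HB9-GFP+ labelled array, 500.6 with Sox1 cells and 68.1 with granule cells. Krt18, its type I partner, was at 571.9, 311.4, 337.3 and 10.8. Both chains of the pair were thus detected on the same 3 arrays and dark on the granule array, where Krt8 was at least 6.81-fold and Krt18 at least 7.26-fold below the ES array. Neither differed by 1 log2 unit between any pair of the ES, HB9-GFP+ labelled and Sox1 arrays, in contrast to Dsg2 and Epcam. The Krt8 log2 differences between the Sox1 and ES arrays were -0.10, -0.11 and -0.17 over its 3 probe sets. Those other than the brightest are of the Affymetrix x type, whose probes can also match other transcripts. Markers of primitive and visceral endoderm, tissues that contain Krt8 and Krt18, were detected in 4, 3, 6 and 2 of 10 cases on the ES, HB9-GFP+ labelled, Sox1 and granule arrays, with summed signals of 2588.9, 1225.2, 3929.2 and 3612.6. On the Sox1 array Ttr (1062.6), Foxa2 (670.3) and Afp (528) were above the ES array, where they were undetected, while Gata6 (107.7 against 457.9), Sox17 (220 against 444.5) and Gata4 (57.9 against 120.8) were below it. Of the granule sum, 2873.7 came from Pdgfra, which also marks oligodendrocyte precursors. Trophectoderm markers were detected in 2 of 7 cases on every array, and Cdx2, which defines that lineage, was at 49 or less on all of them. The part of such cells in the Krt8 and Krt18 signals was not tested.

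Krt19, a type I keratin of simple epithelia, was detected on the HB9-GFP+ labelled array alone, at 204.2 against 82.2, 22.5 and 8.2. Krt42, a type I keratin, was detected on all arrays at 1179.3, 996.6, 482.1 and 423.9. That probe set is of the Affymetrix x type, whose probes can also match other transcripts. Its second probe set was detected only on the ES and HB9-GFP+ labelled arrays, at 318.2 and 507, and was at 72.8 and 51.5 on the Sox1 and granule arrays, so the 2 probe sets disagree on whether Krt42 was detected in the neural samples. Krt10, a keratin of suprabasal epidermis, was at 418.8, 369.5, 517.9 and 812.2, highest on the granule array, and passed 4-fold nowhere. Krt81, a hair keratin with close paralogs whose probes may not be separable, was at 162.8, 96.8, 294.2 and 173.3. The other 38 keratins were undetected, between 1.2 and 142.6. Keratins of stratified epithelium were among them: Krt5 reached 108.5 and Krt14 reached 51 at most, both on the ES array. The transcription factor gene Trp63, which defines basal keratinocytes, reached 51.7. Keratinocyte and surface ectoderm markers were detected in 2, 1, 2 and 2 of 8 cases, but 3 of the 8 (Krt5, Krt14 and Krt15) belong to the set itself.

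In the RefSeq gene order of GRCm38.p6 the 44 measured keratins fell into 4 uninterrupted runs of keratin genes. The detected ones were scattered over them. Krt8 and Krt18 stand side by side in a run of 13 genes, all measured, of which these 2 were the only ones detected. Krt19 and Krt42 were the detected members of another run, with 12 measured, and Krt10 and Krt81 were each the one detected member of a run with 10 and 9 measured. In the runs of type I keratins the undetected genes were Krt12, Krt13, Krt14, Krt15, Krt16, Krt17, Krt20, Krt23, Krt24, Krt25, Krt26, Krt27, Krt28, Krt31, Krt32, Krt34, Krt35, Krt36 and Krt222. In those of type II keratins they were Krt1, Krt2, Krt4, Krt5, Krt7, Krt71, Krt72, Krt73, Krt75, Krt76, Krt77, Krt78, Krt79, Krt80, Krt82, Krt83, Krt84, Krt86 and Krt88.

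Of 4 connexins measured, 2 were detected. Gjb5, a gap junction connexin of skin and placenta, was at 326.5 on the ES array and 750.6 on the HB9-GFP+ labelled array but at 10.5 and 2.8 on the Sox1 and granule arrays. The HB9-GFP+ labelled array was at least 9.53-fold, and the ES array at least 4.15-fold, above each of the other pair. The bound for the ES array lies near the threshold and passed below it, at -1.94 log2 units against the ES array, when the low level was set without the HB9-GFP+ labelled array, and at -1.93 with arrays centred on reference genes. Gjb6, a connexin of astrocytes and the inner ear, was detected on the granule array alone, at 163.2 against 15.3, 10 and 22.1, close to the detection level. Gjb1 and Gjb2 were undetected, between 5.0 and 115.

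Esrp1, which enforces epithelial splice forms, was at 180.5 on the ES array, 622.2 on the HB9-GFP+ labelled array, 47.5 with Sox1 cells and 2.1 with granule cells. It was detected on the first pair only, and the HB9-GFP+ labelled array stood at least 7.90-fold above both others. The difference of 1.79 log2 units between the HB9-GFP+ labelled and ES arrays fell short of 4-fold. Its paralog Esrp2 was barely detected on the ES array, at 166.7 against 117.7, 126.7 and 75.7. The other Esrp2 probe set was undetected throughout. It was brighter on the HB9-GFP+ labelled array (145.0) than on the ES array (116.1).

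The calls of the 84 genes were then set beside those of all genes, comparison by comparison. Against the ES array, the HB9-GFP+ labelled array had 0 genes higher and 1 lower (Dsc2), where 1.11% of all genes were higher and 0.813% lower. The Sox1 array had 0 higher and 7 lower (8.33%), where 3.59% of all genes were higher and 3.02% lower. The 7 were Dsg2, Dsc2, Dsp, Jup, Epcam, Ocln and Gjb5, of which 4 are desmosomal. The granule array had 1 higher (Cldn11) and 9 lower (10.7%), where 6.83% of all genes were higher and 4.99% lower. The 9 were Dsg2, Dsc2, Dsp, Pkp2, Epcam, Ocln, Gjb5, Krt8 and Krt18. These 3 comparisons share the ES array and are not independent.

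Against the Sox1 array, the HB9-GFP+ labelled array had 6 genes higher (7.14%) and 0 lower, where 3.22% of all genes were higher and 3.97% lower. The 6 were Dsg2, Jup, Epcam, Cldn7, Gjb5 and Esrp1. Against the granule array it had 10 higher (11.9%) and 1 lower, where 5.53% of all genes were higher and 7.41% lower. The HB9-GFP+ labelled array is also the one with all 12 fibroblast markers detected, with a summed signal of 27032.5 against 1646.4, 2009.4 and 5566.1 for ES, Sox1 and granule cells. The part of fibroblasts in its differences was not tested. The granule array had 1 gene higher and 3 lower (3.57%) than the Sox1 array, the 3 being Pkp2, Krt8 and Krt18, where 3.66% of all genes were higher and 2.09% lower. The median difference over all 84 genes was 0.00 in each of the 6 comparisons, as it was over all genes, because most of the 84 lie at the low level on both arrays. With arrays centred on reference genes, signals of the granule array shifted up by 0.52 log2 units against the ES array. The calls of the 84 genes in the granule against ES comparison were then 1 higher and 8 lower, while those of all genes changed from 57.8% to 75.4% higher.

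**Figure D3:**
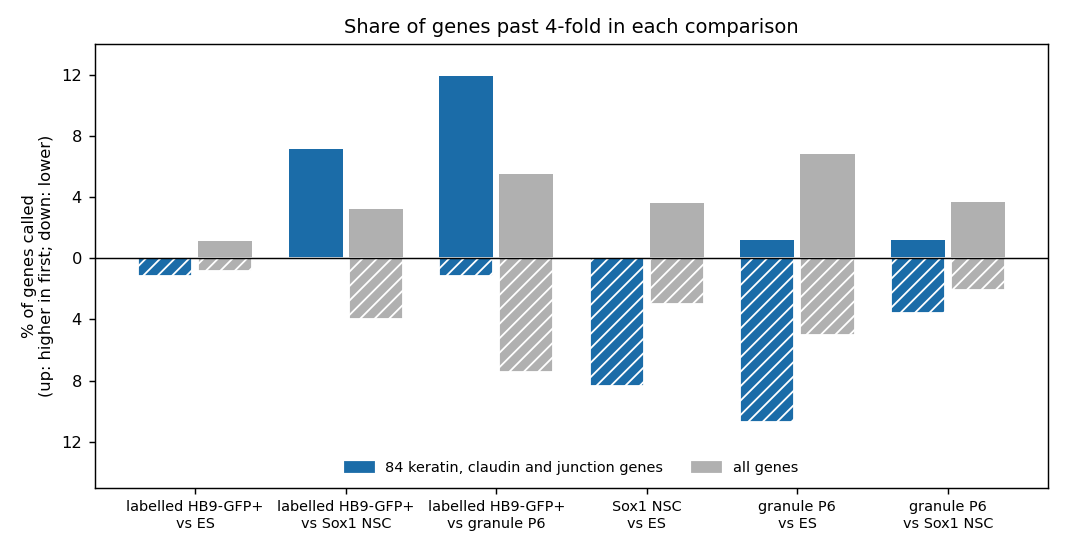
Percent of genes called higher (up) or lower (down, hatched) in the first-named array of each of 6 comparisons, for the 84 keratin, claudin and junction genes (blue) and for all 18193 genes (grey). Where the ES or HB9-GFP+ labelled array is set against the Sox1 or granule array, the longer blue bar, 7.14% to 11.9%, lies on its side and the shorter one is 0 or Cldn11 alone (1.19%).

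By the same rule, 3 of the 84 genes, Dsg2, Epcam and Gjb5, were higher on both the ES and the HB9-GFP+ labelled array than on each of the others, a pattern of 1.33% of all genes. Krt8 and Pkp2 were higher on the ES, HB9-GFP+ labelled and Sox1 arrays than on the granule array, a pattern of 0.868% of all genes. None was higher on both the Sox1 and granule arrays, where 1.57% of all genes were. Between the granule and ES arrays the pooled SD of a gene's log2 differences over its detected probe sets was 1.44 in 9 genes of the set and 0.74 in 4609 genes of the table, and the 18 hybridisation controls had an SD of 0.06. In that comparison 6 called genes had several probe sets detected on either array. In 6 of 6 every such probe set had the same sign, and in 2 of 6 every one passed 4-fold. With the probe sets of each gene averaged, 9 of the 39 calls of the set fell below 4-fold. They were the 3 calls of Dsc2, Dsg2 between the Sox1 array and the ES (-1.68) and HB9-GFP+ labelled (1.87) arrays, Dsp for Sox1 against ES (-1.52), Krt8 (1.66) and Ocln (1.75) for HB9-GFP+ labelled against granule, and Pkp2 for granule against Sox1 (-1.51). With centring on reference genes 7 did, by small margins: 2 calls of Gjb5, 2 of Ocln, and 1 each of Cldn6, Krt8 and Krt18, all between 1.84 and 2 log2 units in size.

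The genes that act with this set were examined through 7 related lists. Against the ES array no gene of any of them was called on the HB9-GFP+ labelled array. Over all genes only 1.11% were higher and 0.813% lower there, so lists of this size would hold few calls. For the counts that follow, 3.59% of all genes were higher and 3.02% lower on the Sox1 array than on the ES array. On the granule array 6.83% were higher and 4.99% lower. Of 11 adherens junction genes, 1 was lower with Sox1 cells and 2 with granule cells. The first was Cdh1, E-cadherin, at 9123.1 on the ES array, 11668.9 on the HB9-GFP+ labelled array, 894.7 with Sox1 cells and 25.0 with granule cells. Nectin2, an immunoglobulin-type adhesion molecule, was the second on the granule array, at 163.9 against 1175.7. The cytoplasmic partners differed by less than 4-fold from the ES array. The alpha-catenin gene Ctnna1 was at 11649, 18434.3, 10197.1 and 5656.8 and the vinculin gene Vcl at 3903.3, 3837.9, 4447.7 and 1325.7.

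Of 20 other tight junction and polarity genes, 2 were lower with Sox1 cells and 5 with granule cells than on the ES array, with none higher. F11r, the junctional adhesion molecule JAM-A, was at 1149.9, 1291.7, 306.1 and 45.7 in the order ES, HB9-GFP+ labelled, Sox1 and granule. The cell polarity gene Llgl2 was at 899.5, 1363.4, 234.3 and 65.1. Both were lower on the Sox1 array than on the HB9-GFP+ labelled array. For F11r that call was lost with log2(signal + 32), at 1.97, and with its probe sets averaged, at 0.98, when its granule against ES difference was -1.93. Pard6b, a subunit of the Par polarity complex, stayed at 638.1 in Sox1 cells and was at 52.4 in granule cells. Cgnl1, or paracingulin, was at 668.3 on the ES array and undetected at 28.1 and 61 on the Sox1 and granule arrays, a call lost, at -0.62, when its probe sets were averaged.

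Surface and attachment genes gave further calls. Of 10 other epithelial surface genes, 4 were lower with Sox1 cells and 5 with granule cells than on the ES array. Spint2, a membrane serine protease inhibitor, was at 8130.7, 9976.1, 1315.8 and 305.1, and its relative Spint1 at 1143.6, 1794.4, 435.2 and 52.6. Ripk4, a kinase of epidermal differentiation, was at 620.9, 1657.4, 113.7 and 3.4, and its calls against the ES array were lost, at -1.61 and -1.88, with its probe sets averaged. Cd24a, which also marks young neurons, ran the other way, at 7544.7, 2722.4, 27118.4 and 18947.6. Of 12 hemidesmosome, basement membrane and envelope genes, 0 were lower with Sox1 cells and 1 with granule cells than on the ES array. The one was Itga6, the laminin-binding integrin chain also used by neural progenitors, at 8792.2, 6499.5, 3014.5 and 963. Lama3, a laminin chain, was at 214.3, 753.7, 35.1 and 34.4, and Perp, a desmosome-associated membrane gene, at 520.3, 1251.2, 232.5 and 137.9. The linker gene Dst was at 3066.9, 898.8, 1050.2 and 2511.2.

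Of 12 transcription factors of epithelia, 5 were lower on the Sox1 array and 6 lower and 1 higher on the granule array than on the ES array. Klf5 was at 7405, 8141.4, 304 and 119.7 and Klf4 at 10449.7, 10033.7, 1399 and 1578.9. Both also belong to the ES cell network. Grhl3 was at 551.8, 607.2, 121.9 and 5.6, and Grhl2, a regulator of Cdh1 and claudins, at 354.1, 583.8, 109.4 and 43.1. The Grhl3 call between the Sox1 and ES arrays was lost with log2(signal + 32), at -1.92. The Grhl2 calls rest on its brightest probe set, and with all its probe sets averaged the granule against ES difference was -0.54. Ovol2 was undetected on every array, at 157.3 on the HB9-GFP+ labelled array. The higher gene was Tfap2a, at 815.7 on the granule array against 159.5, a call lost, at 1.56, with its probe sets averaged.

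Counterparts of mesenchymal and neural cells gave the opposite pattern in part. Of 9 genes, 3 were higher and 0 lower on the Sox1 array than on the ES array, and 2 were higher and 2 lower on the granule array. Cdh2, N-cadherin, was at 68.5, 169.1, 9286.4 and 5405.5, and Zeb2, a repressor of Cdh1, at 45.7, 49, 1332.9 and 1417.9. Both were higher on the Sox1 and granule arrays than on each other array, a pattern of 1.57% of all genes. The Snail repressor genes did not share it. Snai2 was at 617.4, 380.9, 378.7 and 118.6, and Snai1 was undetected on every array. Nes, a progenitor intermediate filament gene, was at 531.8 on the Sox1 array and undetected on the others. Its call against the ES array was lost with its probe sets averaged (1.66) and with log2(signal + 32) (1.81). Zeb1 was at 1569.9, 1027, 3083.4 and 5399.9 and Vim, the filament gene of mesenchyme and progenitors, at 8027.8, 12089.3, 21684.9 and 12329.6, neither past 4-fold against the ES array. Snai2 and the matrix gene Fn1 were lower on the granule array than on the ES array, Fn1 at 508.4 against 8058.9. Of 8 other connexin and pannexin genes, none was called in any of the 6 comparisons: Gja1 stood at 14463.1, 14483.4, 20117.7 and 8033.9 and Gjc1 at 3173.3, 3850.7, 5427.9 and 2695.7. Gjd2, the neuronal connexin, was at 187 on the granule array and undetected at 7.2, 13.8 and 87.4 on the ES, HB9-GFP+ labelled and Sox1 arrays. With log2(signal + 32) it passed 4-fold, at 2.48 for granule against ES and -2.26 for HB9-GFP+ labelled against granule. Panx1, of the pannexin channels, was at 1070.3 on the granule array against 490.7 on the ES array.

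**Figure D4:**
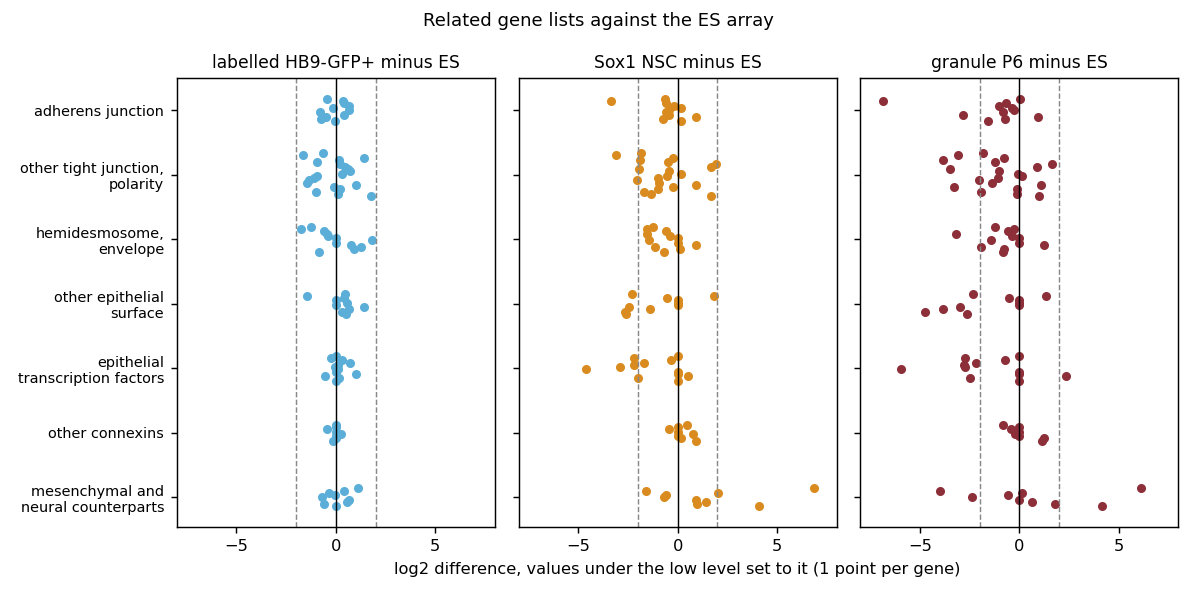
Log2 difference from the ES array for each gene (1 point) of 7 related lists, for the HB9-GFP+ labelled, Sox1 and granule arrays, with signals under 78.8 set to it; dashed lines mark 2 log2 units. No point of the first panel passes a dashed line, while in the other panels Cdh1, Klf5 and most of the called surface genes lie to the left and Cdh2 and Zeb2 to the right.

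The promoters of the detected genes were searched for short motifs, since several of these genes differed together. RefSeq promoters of GRCm38.p6 were matched by symbol for 58 of the 84 genes and for 19 of the 28 detected ones, and the 250 bases before each start were read. The letters CAGGTG, on either strand (CACCTG on the other), are a form of the E-box to which Zeb and Snail repressors can bind. They were found in 10 of the 19 genes (52.6%), in 21 of the 58 (36.2%) and in 19.4% of all 27025 genes with such a promoter. These 27025 include genes undetected on the arrays or absent from them, and no motif was counted over all detected genes. The part of detection in the 52.6% was therefore not tested. The median GC content was 59.6% in the promoters of the detected genes of the set and 52.4% in all promoters, and its part in the 52.6% was not tested. The letters AACCGGTT, a core Grainyhead motif, were in 0 of the 19 genes and in 0.137% of all. CCCCACCC, a Klf-type motif read on both strands, was in 3 of the 19 (15.8%) and in 10.3% of all. Windows of 60 bases around CAGGTG are shown for Epcam, for 2 of the embryonic claudins and for the Krt8 and Krt18 pair, 5′ to 3′ on the gene's strand, with the motif in capitals.
Epcam, chr17:87635765-87635824, plus strand: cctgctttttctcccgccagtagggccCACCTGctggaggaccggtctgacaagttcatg
Epcam, chr17:87635919-87635978, plus strand: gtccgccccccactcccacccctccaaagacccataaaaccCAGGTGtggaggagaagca
Cldn4, chr5:134946935-134946994, minus strand: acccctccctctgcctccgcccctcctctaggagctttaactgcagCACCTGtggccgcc
Cldn6, chr17:23679245-23679304, plus strand: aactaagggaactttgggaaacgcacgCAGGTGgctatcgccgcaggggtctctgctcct
Krt8, chr15:102004421-102004480, minus strand: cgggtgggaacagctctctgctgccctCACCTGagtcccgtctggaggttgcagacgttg
Krt18, chr15:102027975-102028034, plus strand: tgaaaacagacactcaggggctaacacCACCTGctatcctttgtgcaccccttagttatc
The first base of the motif lies 187 and 19 bases before the start in Epcam, 14 in Cldn4, 93 in Cldn6, 111 in Krt8 and 214 in Krt18. Gjb5, Dsp, Jup, Krt42 and Cldn11 are among the matched genes without these letters in the window. Of these, Gjb5, Dsp and Jup were lower on the Sox1 array than on the ES array. Among the 10 genes with the letters, Epcam and Ocln were lower in that comparison. The others, Cldn4, Cldn6, Cldn7, Krt8, Krt10, Krt18, Pkp4 and Tjp3, were not called in it. Dsg2, Pkp2 and Dsc2 had no matched promoter. A match is a description of the letters and not a binding site.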

How the data were processed

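The authors deposited 1 table of linear signal intensities for 45101 probe sets on 4 arrays, from 0.1 to 43110.3. GCRMA is the one tool in the submitters' processing notes, with no version. Each array's mean after trimming 2% at each end was 500.0, which is the form of a scaled average difference, so the step that made the intensities is uncertain, and such scaling hides differences in total RNA. Depth has no meaning for arrays, and their number limits the precision.

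Probe sets were named through the platform annotation, and those with 1 symbol were kept. For each gene the probe set with the highest mean log2 signal over the 4 arrays was taken, giving 18193 genes. All 84 genes of the set matched a RefSeq symbol, and 14 further RefSeq symbols that meet the rule were not analysed here. The low level, 6.30 on the log2 scale, is the mean of the arrays' median log2 signals. The genes, the 7 related lists, the 11 marker lists and the thresholds were chosen with earlier results of these data known. With 1 array per group, no test was made. From the related lists, genes are named by the 4 widest ranges among those detected, plus a few fixed names and the genes Snai1 and Snai2. Neural stem cell markers were detected in 5, 4, 8 and 6 of 8 on the ES, HB9-GFP+ labelled, Sox1 and granule arrays. Alternatives were quantile normalization, centring on 8 reference genes, the mean over probe sets, other detection and size thresholds, and log2(signal + 32) in place of the floor. Python 3.11.15, numpy 2.4.6, pandas 2.3.3, scipy 1.17.1 and matplotlib 3.10.9 were used.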

Additional observations from a re-analysis of the deposited data

How the results depend on the processing

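Across the alternatives no called difference of the 84 genes changed sign, and of 39 called differences at most 9 were lost, when the probe sets of each gene were averaged. With that mean, 0 genes were lower on the HB9-GFP+ labelled than on the ES array, since Dsc2 fell to -1.33, and 4 were lower on the Sox1 than on the ES array. Of all 18193 genes 77 and 384 were lower in these comparisons, against 148 and 549 without averaging. Quantile normalization lost none and centring on reference genes lost 7, without moving any count by over 1.5 times. With detection at 2 log2 units above the low level, 15 genes were detected on the ES array and 16 on the HB9-GFP+ labelled one. With a 2-fold threshold the HB9-GFP+ labelled array had 4 genes higher and 2 lower than ES. Of all 18193 genes 1210 and 1279 were, both larger shares. Against Sox1 it had 14 and 2 (all genes 2090 and 2099), and against granule 17 and 3 (2937 and 2904). The Sox1 array had 1 and 15 against ES (2004 and 2034). The granule array had 2 and 19 against ES (2799 and 2750) and 3 and 8 against Sox1 (1854 and 1589). At this threshold 12 genes were higher on both the ES and HB9-GFP+ labelled arrays than on each other array. That pattern was not counted over all genes at 2-fold. With log2(signal + 32), 14 differences of the set were newly called and 1 was lost. The HB9-GFP+ labelled array then had 15 genes higher (10 with the floor) and 2 lower than granule, where 1063 and 1420 of all genes were. The granule array had 2 higher and 13 lower (9 with the floor) than ES (all genes 1291 and 1014). It had 1 higher and 5 lower than Sox1 (all genes 696 and 410). In a setting chosen after seeing the data, the low level and probe sets came from the 3 arrays other than the HB9-GFP+ labelled one, and 3 called differences (of Gjb5 and Krt18) fell to between -1.98 and -1.94. Over all genes, the share of calls that were higher moved from 57.7% to 67.8% for HB9-GFP+ labelled against ES with quantile normalization, and with reference centring from 42.7% to 23.0% against granule and from 63.6% to 80.6% for granule against Sox1. No paired analysis was possible because each group has 1 array. Signals near the low level limit what can be said of dim genes.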
